A study of Mus musculus with 6 samples.

Results

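*Yap1*, *Wwtr1* (which encodes TAZ), *Tead1*, *Tead2*, *Tead3*, *Tead4*, *Lats1*, *Lats2*, *Amotl2* and *Ajuba* form the transcriptional end of the Hippo pathway, its last kinases and adaptor proteins that act on them. They were found as all array probes that are not controls and whose RefSeq transcript belongs to 1 of these symbols, which gave 17 of 56605 probes and 10 of 45616 genes and transcripts. All 10 genes were tested, and no filter on dim probes was applied to them. The 10 were measured in islet cells of postnatal day 1 (P1) *Wnt4eGFPCre; mTmG* pups. In these pups Cre recombinase is made from the *Wnt4* locus, and the *mTmG* reporter switches from membrane tdTomato to membrane GFP (mGFP) in cells that have made Cre and in their progeny. Wnt4hi cells were mGFP+ and Wnt4low cells mGFP-, separated by FACS, so that the label marks past and present transcription of *Wnt4* in any islet cell and is not a gate for β-cells. Both populations are described as *Wnt4eGFPCre; mTmG*, both came from mice crossed to C57BL/6J, and neither was treated. A supplementary legend of the study labels the Wnt4low side *Wnt4eGFPCre Tg-; mTmG Tg+* instead, and this difference was not resolved here. There were 3 arrays of Wnt4hi cells (replicates 2, 3 and 4) and 3 of Wnt4low cells (replicates 1, 3 and 4), each from a pool of 4 pups, except replicate 4 of either population, which came from 3.

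The Hippo pathway is a kinase cascade that limits organ growth. The kinases LATS1 and LATS2 phosphorylate the coactivators YAP and TAZ, which are then held in the cytoplasm and degraded. Unphosphorylated YAP and TAZ enter the nucleus and switch on genes through the DNA-binding TEAD factors, among them *Ccn1*, *Ccn2*, *Lats2* and *Amotl2*, so that some of the pathway's own inhibitors are its targets. In the pancreas YAP is made in progenitors, duct, endothelial and mesenchymal cells and is lost from cells that enter the endocrine lineage. The arrays measured mRNA, whereas the pathway acts mainly through phosphorylation and the location of its proteins, which were not measured.

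The values are log2 intensities after background correction and quantile normalization, differences are Wnt4hi minus Wnt4low, and values per array are given in the order of replicates 2, 3 and 4 for Wnt4hi and 1, 3 and 4 for Wnt4low cells. For a gene with several probes the brightest stands for the gene. A p value is limma's moderated test, and an adjusted p is Benjamini-Hochberg adjusted over all 45616 genes and transcripts, or over all 56605 probes where a single probe is described. Samples are pools of sorted cells, so p values measure the spread between these pools. *Wnt4*, whose locus drives the sorting label, stood at 11.20, 10.53 and 10.77 in Wnt4hi and 9.85, 10.10 and 9.31 in Wnt4low cells, a difference of 1.08 ± 0.27 (SE, adjusted p = 0.210), and every Wnt4hi array was above every Wnt4low array. Between 70.5% and 79.5% of spots were well above background on the 6 arrays, which lie on 1 slide, and 0 were saturated.

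The 2 populations also differed in markers of other islet cells. Over all genes and transcripts, 5.53% were lower and 5.06% higher in Wnt4hi cells at an unadjusted p under 0.05. All 20 endothelial markers were lower in Wnt4hi cells, 18 of them past an unadjusted p of 0.05 and 10 past an adjusted p of 0.05, with a median difference of -3.19. Their summed intensity was 8803 to 12872 in Wnt4hi and 58248 to 123437 in Wnt4low arrays, and *Tek* and *Tie1* were well above background on 0 Wnt4hi arrays. Of 20 mesenchyme and pericyte markers, 16 were lower, 12 of them past the unadjusted threshold (median -1.15), with summed intensities of 51432 to 98946 and 118947 to 152863, and all 20 were well above background on every array. Of 15 leukocyte markers 13 were lower and 7 passed (median -0.58). The brightest probe of *Itgam* made up 68.6% to 84.8% of their summed intensity, and without it the sums were 12088 to 18739 and 23776 to 28250. Among 18 β-cell markers 15 were higher in Wnt4hi cells and 10 passed (median 0.98, sums of 347278 to 355330 and 197038 to 307450), and 16 were well above background on each array. Of 12 markers of other endocrine cells 6 were higher and 2 lower (median 1.25), of 13 duct markers 3 were higher and 2 lower (0.20), of 16 acinar markers 1 was higher and 2 were lower (-0.80), and of 12 Schwann cell and 10 erythroid markers 4 and 5 were lower and 0 higher (-0.53 and -0.98). At limma's adjusted p under 0.05, 1 marker of other endocrine cells was higher. Of the β-cell, mesenchyme and pericyte, leukocyte, duct, acinar, Schwann cell and erythroid markers 0 passed it. The part of all these cell types in the results on Hippo genes was not tested. In a sorted population measured in bulk, fewer cells of a type and less RNA per cell cannot be told apart.

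Of the 10 genes, 4 were lower in Wnt4hi cells at an unadjusted p under 0.05, namely *Yap1*, *Wwtr1*, *Lats2* and *Ajuba*, and 0 were higher. Over all genes and transcripts 5.53% were lower and 5.06% higher by the same rule. At an adjusted p under 0.05 limma called 0 of the 10 genes (0.406% of all were called lower and 0.0351% higher). The methods' t-test after the same adjustment called 0 of all 45616, so that it says nothing about the 10. In the same 4 genes every Wnt4hi array was below every Wnt4low array, as in 6.44% of all genes and transcripts, and the opposite was found in 0 of the 10 and in 9.63% of all. In sign alone 8 of the 10 were below 0, compared with 36.4% of all. Among the 22908 genes with a symbol, which are closer to these 10 in kind than unnamed transcripts, 7.80% were lower and 5.76% higher at the unadjusted p, 0.637% and 0.0480% at the adjusted p, 8.54% had every Wnt4hi array below and 9.87% above every Wnt4low array, and 39.6% were below 0. The median difference over the 10 genes was -0.30 and that over all genes and transcripts was 0.07. The 4 TEAD genes, *Lats1* and *Amotl2* did not pass the unadjusted threshold.

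**Figure D1:**
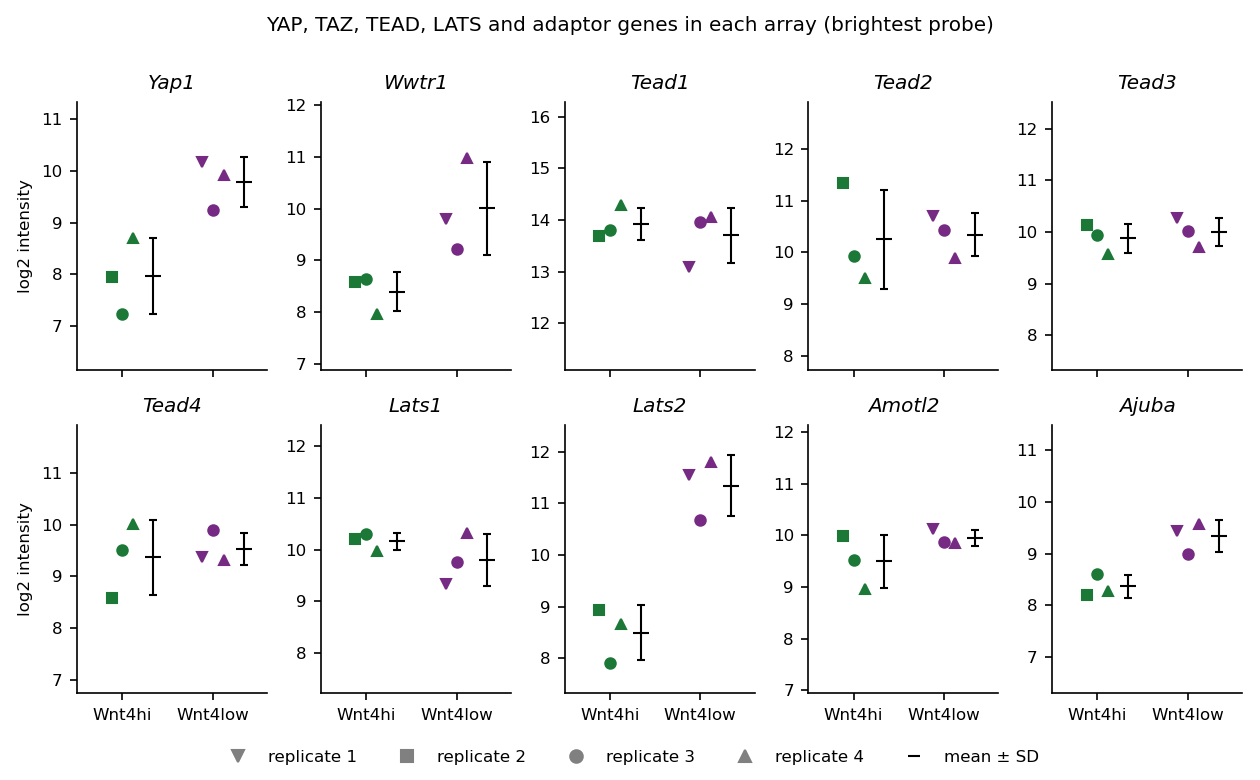
Normalized log2 intensity of the brightest probe of each of the 10 genes in each array, with green symbols for Wnt4hi and purple symbols for Wnt4low cells, symbol shapes for replicates and black bars for the mean ± SD of 3 arrays. Each panel spans the same log2 range around its own centre, because levels of different probes are not comparable. *Yap1*, *Wwtr1*, *Lats2* and *Ajuba* are the panels in which the 2 populations do not overlap.

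*Yap1* encodes YAP, the coactivator that LATS kinases restrain. Its single probe read 7.95, 7.23 and 8.71 in Wnt4hi and 10.17, 9.25 and 9.93 in Wnt4low cells, means of 7.96 ± 0.74 and 9.78 ± 0.48 (SD, n = 3 each). All Wnt4hi arrays were below all Wnt4low arrays, with the smallest gap between Wnt4hi replicate 4 and Wnt4low replicate 3. The difference of -1.82 ± 0.43 (SE, 95% interval -2.85 to -0.78, unadjusted p = 0.00496, adjusted p = 0.182) made *Yap1* 3.53-fold lower in Wnt4hi cells. The probe was well above background on 2 of 3 Wnt4hi and on all 3 Wnt4low arrays. In the authors' own table of log2 values the difference was -0.97, with an unadjusted p of 0.00196.

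*Wwtr1* encodes TAZ, the paralogue of YAP. It read 8.58, 8.64 and 7.96 in Wnt4hi and 9.80, 9.22 and 10.99 in Wnt4low cells, means of 8.39 ± 0.38 and 10.004 ± 0.90 (SD, n = 3 each). The populations did not overlap, although Wnt4low replicate 3 lay closer to the Wnt4hi arrays than to Wnt4low replicate 4. *Wwtr1* was 3.06-fold lower in Wnt4hi cells, a difference of -1.61 ± 0.47 (SE, 95% interval -2.75 to -0.47, unadjusted p = 0.0132, adjusted p = 0.279).

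Because *Yap1*, *Wwtr1*, *Lats2* and *Ajuba* were lower together, the 250 bases before the transcription starts listed for them are shown, from RefSeq on GRCm38.p6. Whether each listed start is used in these cells was not measured. They were searched on both strands for the core letters of the TEAD motif, CATTCC, whose reverse complement is GGAATG, and matches are in capitals. Each is written 5′ to 3′ on the strand of the gene.
Yap1 (chr9:8004597-8004846, minus strand): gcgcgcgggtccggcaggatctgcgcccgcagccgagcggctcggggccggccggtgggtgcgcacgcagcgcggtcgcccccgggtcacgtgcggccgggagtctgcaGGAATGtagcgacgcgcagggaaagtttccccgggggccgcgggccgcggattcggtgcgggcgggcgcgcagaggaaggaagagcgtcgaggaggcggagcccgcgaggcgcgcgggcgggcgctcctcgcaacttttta
Wwtr1 (chr3:57575911-57576160, minus strand): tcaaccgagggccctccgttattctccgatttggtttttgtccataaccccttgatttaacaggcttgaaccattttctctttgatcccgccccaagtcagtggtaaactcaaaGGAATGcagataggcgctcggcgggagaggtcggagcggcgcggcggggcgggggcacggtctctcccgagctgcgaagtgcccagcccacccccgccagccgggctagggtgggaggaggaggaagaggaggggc
Ajuba (chr14:54577662-54577911, minus strand): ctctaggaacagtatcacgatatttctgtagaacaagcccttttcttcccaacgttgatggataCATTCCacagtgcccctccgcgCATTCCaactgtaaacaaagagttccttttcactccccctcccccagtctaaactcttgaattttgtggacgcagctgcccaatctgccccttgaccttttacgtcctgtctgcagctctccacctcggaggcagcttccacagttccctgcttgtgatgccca
Lats2, first window (chr14:57746124-57746373, minus strand): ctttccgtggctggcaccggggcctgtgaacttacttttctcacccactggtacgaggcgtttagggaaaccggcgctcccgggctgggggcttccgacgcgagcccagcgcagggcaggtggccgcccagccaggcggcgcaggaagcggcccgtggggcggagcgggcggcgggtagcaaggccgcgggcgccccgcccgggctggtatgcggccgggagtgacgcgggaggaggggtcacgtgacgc
Lats2, second window (chr14:57734419-57734668, minus strand): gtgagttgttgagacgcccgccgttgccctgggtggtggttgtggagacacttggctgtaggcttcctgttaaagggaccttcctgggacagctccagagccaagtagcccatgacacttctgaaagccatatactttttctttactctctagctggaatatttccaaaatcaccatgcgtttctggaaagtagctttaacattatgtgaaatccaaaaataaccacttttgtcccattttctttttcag

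The *Yap1* match begins 141 bases before the start, the *Wwtr1* match 136 bases before the start shown and 170 before a second start listed for the gene, and the 2 *Ajuba* matches 186 and 164 bases before it. Both *Lats2* windows hold 0 matches in these letters. Of the 10 genes 8 had a window, and 5 of the 8 held a match in at least 1 window (*Yap1*, *Wwtr1*, *Tead3*, *Amotl2* and *Ajuba*), compared with 14.4% of 27025 genes and 12.6% of 32851 windows of the same length. *Tead3* and *Amotl2* hold the letters and did not pass the test, and *Lats2* passed without them. The letters TGANTCA, the AP-1 motif that often lies beside TEAD sites in enhancers, were in 0 of the 8, compared with 7.82% of all genes. The windows printed differ in base composition, from 44.8% G and C in the second *Lats2* window and 50.8% in that of *Ajuba* to 76.4% in that of *Yap1*, with a median of 52.4% over all windows. A match of letters describes the window and is no measured binding.

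LATS1 and LATS2 are the kinases that phosphorylate YAP and TAZ. The brightest *Lats2* probe (A_52_P315345, transcript NM_015771) read 8.92, 7.91 and 8.66 in Wnt4hi and 11.55, 10.67 and 11.80 in Wnt4low cells, means of 8.50 ± 0.53 and 11.34 ± 0.59 (SD, n = 3 each). The 2 populations were separated by more than the range within either. *Lats2* was 7.18-fold lower in Wnt4hi cells, a difference of -2.84 ± 0.39 (SE, 95% interval -3.78 to -1.90, unadjusted p = 0.000284, adjusted p = 0.0575), the lowest p of the 10 genes. This adjusted p lay between 0.0223 and 0.338 over 20 alternatives, which include other tests and the omission of single arrays. It was under 0.05 in 8 of them. Without 1 array, 0 to 9 of all 45616 genes and transcripts were called at the adjusted p. With the methods' t-test or the replicate number as a fixed block, 0 were called. Those alternatives therefore say little about *Lats2*.

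The size of the *Lats2* difference depended on the probe. The dimmer probe of the same transcript (A_51_P133349) read 7.46, 7.60 and 7.61 against 8.87, 8.49 and 8.51, a difference of -1.07 ± 0.16 (SE, adjusted p = 0.0652), and was well above background on 1 of 3 Wnt4hi arrays. It went the same way without overlap. A probe for another transcript, NM_153382 (A_55_P2002351), read 9.68, 9.81 and 9.39 against 9.86, 9.73 and 9.98, a difference of -0.23 ± 0.17 (SE, 95% interval -0.63 to 0.17, adjusted p = 0.714), and its populations overlapped. With the mean of the 3 probes the difference of *Lats2* was -1.38, and in the authors' table it was -1.54. *Lats1* read 10.20, 10.30 and 9.97 in Wnt4hi and 9.33, 9.75 and 10.33 in Wnt4low cells, a difference of 0.36 ± 0.27 (SE, 95% interval -0.30 to 1.01, adjusted p = 0.749), and Wnt4low replicate 4 was above every Wnt4hi array. Without that array the *Lats1* difference was 0.62 and passed the unadjusted threshold. Its other probe differed by -0.10. Whether *Lats1* and *Lats2* differ in response was not tested.

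AMOTL2 is a scaffold that retains YAP and TAZ at cell junctions, and AJUBA is a LIM-domain protein that binds LATS kinases and restrains them. *Ajuba* read 8.20, 8.62 and 8.29 in Wnt4hi and 9.45, 8.99 and 9.58 in Wnt4low cells, means of 8.37 ± 0.22 and 9.34 ± 0.31 (SD, n = 3 each). The populations did not overlap, and *Ajuba* was 1.96-fold lower in Wnt4hi cells (difference -0.97 ± 0.21 SE, 95% interval -1.48 to -0.46, unadjusted p = 0.00338, adjusted p = 0.154). *Amotl2*, which is also a target of YAP, read 9.99, 9.53 and 8.96 against 10.12, 9.87 and 9.85, a difference of -0.45 ± 0.27 (SE, 95% interval -1.11 to 0.22, adjusted p = 0.677). Only Wnt4hi replicate 2 overlapped the Wnt4low range. Without that array the difference of *Amotl2* was -0.70 and passed the unadjusted threshold. It also passed in the authors' table, at -0.64, but the column of Wnt4hi replicate 2 there does not follow that array, so this is no separate support.

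The TEAD factors carry the DNA-binding domain through which YAP and TAZ act. By their brightest probes, 0 of the 4 genes passed. *Tead1* read 13.69, 13.80 and 14.28 in Wnt4hi and 13.10, 13.96 and 14.05 in Wnt4low cells, a difference of 0.22 ± 0.31 (SE, 95% interval -0.53 to 0.97, adjusted p = 0.873), and its 2 other probes differed by -0.29 and 0.04. *Tead3* read 10.13, 9.93 and 9.57 against 10.27, 10.02 and 9.71, a difference of -0.12 ± 0.22 (SE, 95% interval -0.65 to 0.40, adjusted p = 0.904). *Tead4* read 8.58, 9.51 and 10.01 against 9.38, 9.89 and 9.32, a difference of -0.16 ± 0.38 (SE, 95% interval -1.10 to 0.77, adjusted p = 0.931). The populations overlapped for all 3 of these genes, and the sign of each turned in at least 1 alternative. For *Tead3* it turned only where an array was omitted. The intervals still hold differences of 0.65 or more in size.

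*Tead2* is the TEAD gene whose probes disagreed. The brightest probe (A_51_P227739, NM_011565) read 11.34, 9.93 and 9.51 in Wnt4hi and 10.71, 10.43 and 9.90 in Wnt4low cells, a difference of -0.09 ± 0.50 (SE, 95% interval -1.30 to 1.12, adjusted p = 0.974). Here Wnt4hi replicate 2 stood above all Wnt4low arrays and the other Wnt4hi arrays within or below them. The other probe (A_55_P2129271, NM_001285498) read 8.07, 8.17 and 8.46 in Wnt4hi and 10.48, 9.88 and 10.10 in Wnt4low cells, without overlap. It was 3.78-fold lower in Wnt4hi cells (difference -1.92 ± 0.21 SE, adjusted p = 0.0360), and was the only 1 of the 17 probes past an adjusted p of 0.05, compared with 0.440% of all probes called lower and 0.0371% called higher. With the mean of both probes *Tead2* differed by -1.003 and passed the unadjusted threshold. In the authors' table it differed by -1.02 and passed too. The column of Wnt4hi replicate 2 there does not follow that array, so this is no separate support. *Tead2* also passed in that table without this column.

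Over all 17 probes, 14 were lower in sign, compared with 38.7% of all probes, and 3 higher. At an unadjusted p under 0.05, 6 were lower and 0 higher, compared with 6.12% and 4.88% of all probes. The 6 were the probes of *Yap1*, *Wwtr1* and *Ajuba*, 2 of the 3 probes of *Lats2* and 1 of the 2 probes of *Tead2*. The same 6 had every Wnt4hi array below every Wnt4low array, as had 7.13% of all probes, and 0 had the opposite, compared with 9.29%. Of the 17 probes 15 were well above background on each of the 6 arrays, and 0 spots were saturated or marked as outliers. Probes of a gene share its RNA and are not replicates.

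The disagreement between probes was set against the spread between arrays by taking, in each array, 1 probe minus the other. Among 9 pairs of probes of 1 gene, 4 gave values that did not overlap between the populations, compared with 11.7% of 12817 such pairs over all genes with a symbol. The 4 pairs come from only 2 genes, since 3 of them are the linked pairs of *Lats2*. The *Tead2* pair, brightest minus the other, averaged 2.02 in Wnt4hi and 0.19 in Wnt4low cells. For *Lats2* the NM_015771 probe A_52_P315345 minus the NM_153382 probe averaged -1.13 in Wnt4hi and 1.48 in Wnt4low cells, and the other 2 *Lats2* pairs also did not overlap. Both of these hold the probe A_51_P133349, which was well above background on only 1 of 3 Wnt4hi arrays. Its values there lie near the lowest that could be measured. Minus A_52_P315345 it averaged -0.94 in Wnt4hi and -2.72 in Wnt4low cells. Such a floor can widen this shift, so this pair gives no firm sign that the probes disagree. Minus the NM_153382 probe it averaged -2.07 and -1.24 in turn, a shift that the floor can only narrow. Each of the 4 had a two-sided exact permutation p of 0.1, the smallest that 3 against 3 arrays can give, and 0.225 after adjustment over the 9 pairs. The *Tead1*, *Tead4* and *Lats1* pairs overlapped.

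**Figure D2:**
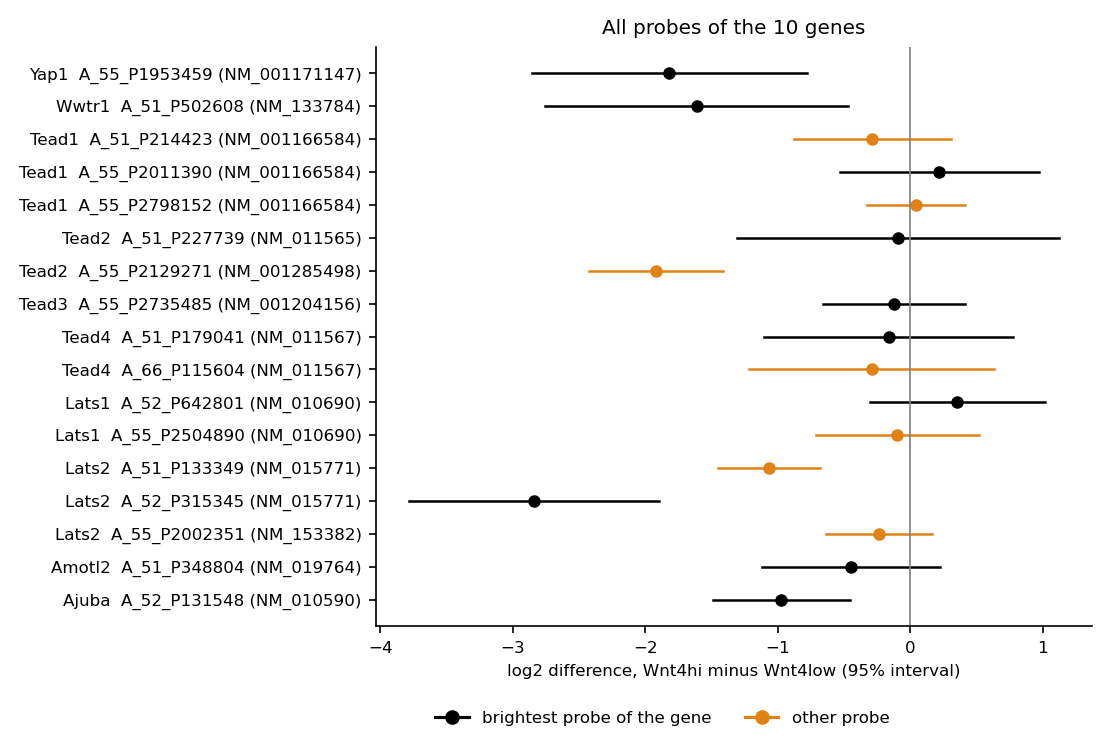
Log2 difference, Wnt4hi minus Wnt4low, of each of the 17 probes with its 95% interval, black for the brightest probe of a gene and orange for its other probes, labelled by probe and transcript. *Lats2* ranges from -2.84 to -0.23 and *Tead2* from -1.92 to -0.09 by probe, while the *Tead1*, *Tead4* and *Lats1* probes all have intervals that cross 0.

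The 10 genes were also followed array by array, each relative to its own mean over the 6 arrays. The median over the 10 genes was -0.37, -0.21 and -0.47 in the Wnt4hi and 0.40, 0.14 and 0.29 in the Wnt4low arrays. The endothelial markers had medians of -1.07, -1.81 and -1.55 against 2.12, 1.19 and 1.43, and the mesenchyme and pericyte markers 0.14, -1.22 and -0.66 against 0.48, 0.50 and 0.69. In both populations taken alone the arrays did not keep 1 order between these measures. Among Wnt4hi arrays *Yap1* and *Lats2* were lowest in replicate 3, as were the endothelial and mesenchymal medians, whereas *Wwtr1* was lowest in replicate 4 and *Ajuba* in replicate 2. Among Wnt4low arrays all 4 genes were lowest in replicate 3, as was the endothelial median, but *Wwtr1*, *Lats2* and *Ajuba* were highest in replicate 4 and *Yap1* and the endothelial median in replicate 1.

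**Figure D3:**
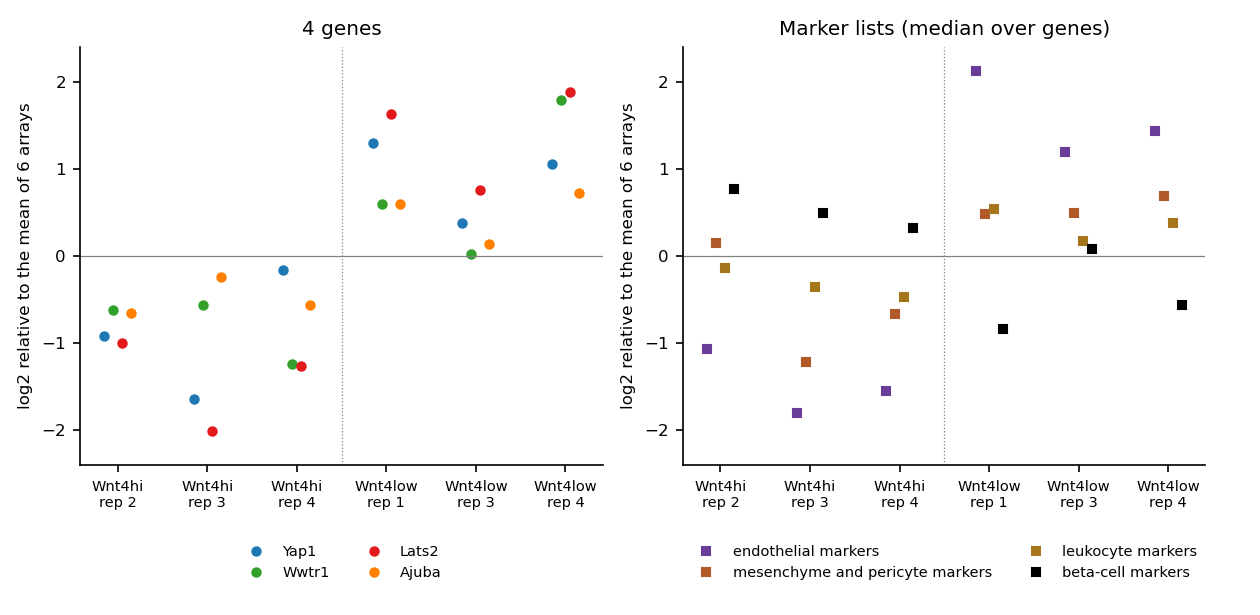
Left, log2 intensity of the 4 genes lower in Wnt4hi cells relative to their mean over the 6 arrays. Right, the median of the same quantity over endothelial, mesenchyme and pericyte, leukocyte and β-cell markers. Each column is 1 array, Wnt4hi to the left of the dotted line, and the endothelial medians of -1.81 to -1.07 and 1.19 to 2.12 are the most widely separated of the lists shown.

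The genes with the profile nearest to *Yap1* were sought among 17657 genes with a symbol, by the root mean square of the log2 differences between 2 profiles centred over the 6 arrays. The nearest were *Lamc1* (0.13), *Meox1* (0.20), *Frmd8* (0.20), *Ephb4* (0.23) and *Efna1* (0.25). The median distance over all candidates was 1.11, which only gives the scale, since the nearest of so many lie below it by selection. *Lamc1* encodes a laminin chain of basement membranes, *Meox1* a homeodomain factor of mesoderm, and *Ephb4* and *Efna1* a receptor and a ligand of the Eph family that are well known from vessels. For *Wwtr1* they were *Ifit3* (0.24), *Atg9b* (0.26), *Cenpn* (0.26), *Ckap2* (0.27) and *Tm6sf1* (0.28), with a median of 1.05. *Cenpn* and *Ckap2* encode proteins of the centromere and the spindle, and *Ifit3* an interferon-induced protein that was well above background on 0 Wnt4hi arrays. *Meox1* and *Atg9b* were well above background on 2 of 3 Wnt4hi arrays. The *Yap1* and *Wwtr1* profiles were 0.77 apart, farther than *Yap1* from *Lats2* (0.62) or *Ajuba* (0.69) and than *Wwtr1* from *Ajuba* (0.53). Closer to *Yap1* than *Lats2*, *Ajuba* and *Wwtr1* lay 514, 870 and 1383 candidates in turn, and 242 lay closer to *Wwtr1* than *Ajuba*. These distances are over 6 arrays and describe only the likeness of profiles.

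The cascade above YAP and TAZ was described with lists of other genes. The kinases and adaptors comprised 17 genes, among them the MST kinases (*Stk3*, *Stk4*), which activate LATS, and the MAP4K and TAO kinases. By limma's unadjusted p, 2 were lower (*Sav1* and *Map4k4*), 1 was higher (*Stk38*) and 14 did not pass, with a median of -0.35 and 0 past the adjusted threshold. Over all genes and transcripts 5.53% were lower and 5.06% higher, so that these counts stand little apart from the background. *Sav1*, the scaffold of the MST kinases, read 7.75, 8.02 and 8.02 in Wnt4hi and 9.20, 8.57 and 9.29 in Wnt4low cells, a difference of -1.09 ± 0.23 (SE, adjusted p = 0.141) without overlap. *Map4k4* differed by -0.63 (adjusted p = 0.319), and its other probe by -1.001. It no longer passed with the fixed replicate block or without Wnt4hi replicate 2, Wnt4hi replicate 3 or Wnt4low replicate 3. *Mob1a*, the coactivator of LATS, differed by -0.99 (adjusted p = 0.491), did not pass the unadjusted threshold and overlapped, but passed in 6 of 18 alternatives. *Stk38*, a kinase related to LATS, differed by 0.73 (adjusted p = 0.327), but its other probe by -0.36, and it no longer passed with the mean of both probes, at 0.19, with the fixed replicate block, or without Wnt4hi replicate 2, Wnt4low replicate 1 or Wnt4low replicate 3.

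Of 31 upstream regulators, which sense cell contact, polarity and tension, 30 were measured, and *Dchs2* was not analysed here. Of the 30, 9 were lower, 0 higher and 21 did not pass the unadjusted threshold, and 0 passed the adjusted one, beside 5.53% lower and 5.06% higher over all genes and transcripts at the unadjusted p. The median was -0.08, near that of all genes and transcripts. *Wwc2*, a paralogue of the scaffold KIBRA, read 9.77, 10.32 and 9.60 against 11.15, 11.02 and 11.36, a difference of -1.28 ± 0.22 (SE, adjusted p = 0.0945). *Amotl1*, a paralogue of *Amotl2*, read 8.23, 8.44 and 9.31 against 11.91, 10.24 and 10.95, a difference of -2.38 ± 0.49 (SE, adjusted p = 0.135). Neither gene overlapped between the populations, and *Amotl1* differed by -1.73 in the authors' table and by -1.72 with the fixed replicate block. The atypical cadherin *Fat4* differed by -1.41 (adjusted p = 0.184) and *Wtip*, a LIM-domain relative of AJUBA, by -1.22 (adjusted p = 0.243), but the other *Wtip* probe by -0.36. The mean of both *Wtip* probes differed by -0.79, and in the authors' table *Wtip* differed by -0.82 and did not pass. The methods' t-test called 5 of the list lower in place of 9, and 1 higher, and over all genes and transcripts it called 4.08% lower and 4.83% higher.

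VGLL proteins are cofactors that bind TEAD in place of YAP and TAZ. All 4 were measured, 2 were lower at the unadjusted p (5.53% of all genes and transcripts) and 2 did not pass. *Vgll4*, a competitor of YAP for TEAD, read 8.87, 8.55 and 8.91 in Wnt4hi and 10.45, 11.08 and 11.84 in Wnt4low cells, a difference of -2.35 ± 0.35 (SE, adjusted p = 0.0695), 5.09-fold lower without overlap. In the authors' table it differed by -1.51. *Vgll3* read 7.79, 7.36 and 7.44 against 8.34, 9.46 and 10.09, a difference of -1.77 ± 0.44 (SE, adjusted p = 0.205). It did not overlap either, and was well above background on 2 of 3 Wnt4hi arrays. *Vgll1* differed by 0.12 (adjusted p = 0.895) and *Vgll2* by 0.24 (adjusted p = 0.753), and both overlapped.

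Target genes of YAP and TEAD are the usual mRNA readout of the pathway. Apart from *Lats2* and *Amotl2*, 20 were listed and measured, of which 11 were lower, 1 was higher and 8 did not pass at the unadjusted p, with a median of -0.97, beside 5.53% lower and 5.06% higher over all genes and transcripts. At the adjusted p, 3 were lower and 0 higher, beside 0.406% and 0.0351% of all. *Ccn2*, a secreted matrix protein known as CTGF, read 10.16, 9.53 and 10.42 in Wnt4hi and 12.43, 11.90 and 12.49 in Wnt4low cells, a difference of -2.24 ± 0.29 (SE, adjusted p = 0.0491). The receptor kinase *Axl* read 10.69, 10.55 and 10.41 against 11.86, 12.18 and 12.03, a difference of -1.47 ± 0.15 (SE, adjusted p = 0.0333), and its other probe differed by -2.73. Neither gene overlapped, and each was well above background everywhere.

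*Crim1*, a membrane protein that binds growth factors, read 8.57, 7.46 and 7.54 in Wnt4hi and 10.91, 10.54 and 11.63 in Wnt4low cells, a difference of -3.17 ± 0.40 (SE, adjusted p = 0.0491), and was well above background on 2 of 3 Wnt4hi arrays. *Asap1*, a regulator of ARF GTPases, differed by -1.50 ± 0.21 (SE, adjusted p = 0.0630), and its other probe by -1.47. The gene that was higher, named after its value was seen, was *F3*, tissue factor, with a difference of 1.21 (adjusted p = 0.349). *Ankrd1* and *Nt5e* were well above background on 0 arrays. The adjusted calls of *Ccn2*, *Axl* and *Crim1* were lost whichever single array was omitted, under the fixed replicate block and by the methods' t-test, that of *Axl* also in the authors' table and that of *Ccn2* in that table without Wnt4hi replicate 2. Over all genes and transcripts 0 to 9 adjusted calls were made without 1 array, compared with 201. Several of these targets are also well known from endothelial and mesenchymal cells, whose markers were lower in the same Wnt4hi arrays by the amounts given above, and that part was not tested.

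**Figure D4:**
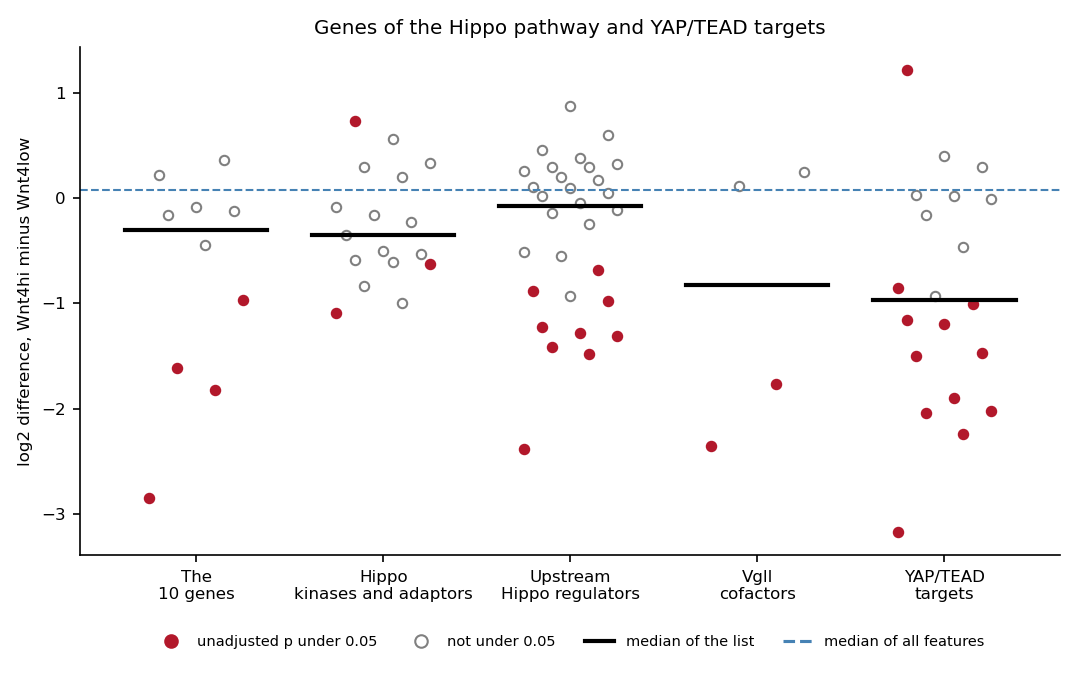
Log2 difference, Wnt4hi minus Wnt4low, of each gene in 5 lists, filled red where limma's unadjusted p was under 0.05 and open where it was not. Black bars are the medians of the lists (-0.30, -0.35, -0.08, -0.82 and -0.97 from left to right), and the dashed line at 0.07 is the median over all genes and transcripts.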

How the data were processed

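The data were 6 single-color SurePrint G3 Mouse v2 arrays of amplified cDNA from FACS-sorted P1 islet cells, labelled with Cy5, 3 of Wnt4hi and 3 of Wnt4low cells. The sample labels gave the population and the replicate number. The authors deposited scanner output with the intensity of each spot and its local background, not normalized (Agilent Feature Extraction 12.0.1.1 per the file headers, 9.1 per the submitters' processing notes), and a table of normalized log2 values of 36693 transcripts. The table was used as an alternative.

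Following the study's methods, median intensities were corrected with normexp (offset 50), normalized by quantiles and compared with lmFit and eBayes in limma 3.58.1 (R 4.3.3), without covariates. Spots marked as outliers were left out, probes were named through a RefSeq table of GRCm38.p6, used for names only, and the brightest probe stood for each gene. P values were adjusted by Benjamini-Hochberg over 45616 genes and transcripts. The unadjusted threshold of 0.05 of the study was used beside it.

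The 10 genes and all lists were chosen with earlier results of these data known. All 10 genes are named with every probe. From each pathway list the 4 genes with the lowest p among those well above background in the higher population are named, and for *Yap1* and *Wwtr1* the 5 nearest profiles. Alternatives changed the background correction, normalization, dim-probe filter, outlier spots, probe choice, variance model, test, values and replicate block, and also omitted every array once. The table without Wnt4hi replicate 2 was added after seeing the data. The calculation was tested on simulated data. Precision is limited by the number of arrays, and a two-sided exact permutation test of 3 against 3 cannot go below 0.1.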

Additional observations from a re-analysis of the deposited data

How the results depend on the processing

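*Yap1*, *Wwtr1*, *Lats2* and *Ajuba* kept their direction and passed the unadjusted threshold in all 20 alternatives. Of the 10 genes, 4 to 6 were lower at the unadjusted p. *Lats2* passed the adjusted threshold, so that 1 gene in place of 0 was called lower, with no background subtraction, an offset of 16, the processed signal scaled to its 75th percentile, median centring, the filter on dim probes, the mean of all probes, the authors' table and a random replicate block. Without 1 array 0 of the 10 were called at the adjusted p, 0 to 1 were higher at the unadjusted p (*Lats1* without Wnt4low replicate 4), and their median lay between -0.66 and -0.30. The median was -0.77 in the authors' table and -0.79 in that table without Wnt4hi replicate 2.

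Among the genes named from the pathway lists, *Fat4* passed the adjusted threshold in 1 of 20 alternatives, *Vgll4* in 2 of 20 and *Asap1* in 2 of 18. Upstream regulators called lower numbered 5 with the methods' t-test, compared with 9, and 6 to 9 without 1 array. Called higher were 1 in place of 0 with that test and in the authors' table, with or without Wnt4hi replicate 2, and 0 to 1 without 1 array. Target genes called higher numbered 0 in place of 1 with the methods' t-test and 0 to 1 without 1 array, where Wnt4hi replicates 3 and 4 and Wnt4low replicate 1 each decided it. Kinases and adaptors called higher numbered 0 with the fixed replicate block, 2 in the authors' table without Wnt4hi replicate 2, and 0 to 1 without 1 array (0 without Wnt4low replicate 1, while without Wnt4hi replicate 2 or Wnt4low replicate 3 *Stk38* did not pass and the 1 gene called was another).

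Signs that turned were all of genes that did not pass. *Tead1* was -0.0073 with the mean of probes, -0.015 in the authors' table and -0.082 without Wnt4low replicate 1 (up to 0.39 without another array). *Tead2* was 0.075, 0.29 and 0.095 without Wnt4hi replicate 3, Wnt4hi replicate 4 and Wnt4low replicate 1 (down to -0.63 without another array). *Tead3* was 0.031 and 0.011 without Wnt4hi replicate 4 and Wnt4low replicate 1 (down to -0.27 without another array). *Tead4* was 0.16 with the fixed replicate block, 0.23 without Wnt4hi replicate 2 and 0.018 without Wnt4low replicate 3 (down to -0.48 without another array). *Vgll1* was -0.0035 without Wnt4hi replicate 2 (up to 0.25 without another array) and -0.025 in the authors' table without it. The causes were not tested.

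Replicates 3 and 4 occur in both populations, and the correlations of their deviations from the group means were -0.03 and 0.16 over 45610 genes and transcripts (replicates 3 and 4 in turn). The labels do not say whether samples of the same number came from the same pups, so the number was not taken as a pairing. With the number as a fixed replicate block, *Yap1* differed by -1.62, *Wwtr1* by -1.81, *Lats2* by -2.95 and *Ajuba* by -0.83, all past the unadjusted threshold, and 0 genes and transcripts passed the adjusted one in place of 201. With a random block 257 did. Over all features 508 adjusted calls were made with the filter on dim probes, 406 in the authors' table and 0 with the methods' t-test. Signal over background, 10.8 to 15.6 in the 6 arrays, limits the dim probes of *Yap1* and *Lats2* in Wnt4hi cells.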

Other observations

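The authors' table was set against the scanner values over 30503 transcripts, each centred over the 6 arrays. The columns of 5 samples correlated with their own array at 0.88 to 0.90. The column of Wnt4hi replicate 2 correlated with its own array at 0.28 and with that of Wnt4hi replicate 3 at 0.29. All 6 columns had a median near 8.91. The direction of the differences of *Yap1*, *Wwtr1*, *Lats2* and *Ajuba* was the same in that table with and without this column.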
